A study of Saccharomyces cerevisiae with 2 samples.

Results

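The PRM genes, for pheromone-regulated membrane protein, are yeast genes grouped by their induction during mating. The 8 genes described here are PRM2, PRM4, PRM5, PRM6, PRM7, PRM8, PRM9 and PRM10, taken from the 6207 gene features of the table by their systematic names (YIL037C, YPL156C, YIL117C, YML047C, YDL039C, YGL053W, YAR031W and YJL108C). The rule uses no measured value. All 8 names matched the R64 gene table of NCBI RefSeq, the source of gene names used here. A value was present for 6 of them in one comparison and for all 8 in the other.

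RNA came from Saccharomyces cerevisiae, budding yeast, grown in the rich medium YPD at 24 °C with shaking at 200 rpm. The first comparison set a strain lacking MSG5 against wild type, the laboratory strain BY4741 of mating type a, both without pheromone and collected 2 hours after time 0. The second set that deletion strain with alpha factor, the pheromone of alpha cells, against the same strain without it, both collected at 90 minutes. MSG5 encodes a phosphatase of mitogen-activated protein kinases (MAPKs), so both RNAs of the second comparison lack it. The labels give the alpha factor concentration as 50 mM, a unit that could not be checked, and do not name the background of the deletion strain. Growth before time 0 was 2 h 30 min in the first comparison and 4 h in the second.

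Each comparison drew on 2 biological samples and 4 two-colour arrays, with dyes swapped, and the authors reduced these to 1 log ratio per feature. The spread between arrays and the spot intensities were not used here, so no value below carries a replicate error or a test. Precision is limited by how few arrays there were. Rows that map to the same gene give a rough yardstick: they lay a median of 0.20 apart in log2 in the deletion comparison (25 genes) and 0.29 apart with alpha factor (24 genes). Such gaps are between different features on the same arrays, so they do not measure the spread between biological samples. The deletion values were base 2 logarithms, since all 5310 of them, controls included, fitted ratios rounded to 0.001. The base of the alpha factor values was taken as 2 and is less certain, as described under the processing. MSG5 was the lowest of all gene features in the deletion comparison at -2.51, which checks the deletion and the direction. The alpha factor ratio is likely treated over untreated, from the same channel layout and from 7 of 7 pheromone-induced genes outside the PRM genes (FIG1, FIG2, AGA1, FUS1, FUS3, STE2 and SST2) that lay above 0. In the wider list of pheromone response genes used below, 20 of 25 measured lay above 0, and FUS2 (-0.18), KSS1 (-0.31), STE12 (-0.12), STE6 (-0.17) and CIK1 (-0.02) lay below it. Every direction given for alpha factor rests on that. Ratios give no levels, so the a-cell identity of the cultures could not be checked. Of 7 a-cell genes, 3 were at least 2-fold higher in each comparison (ASG7, AGA2 and MFA1), against 0.785% and 0.37% of all genes. BAR1 stood at 0.65 and 0.55, MFA2 at -0.10 and 0.74, STE2 at 0.11 and 0.25, and STE6 at 0.10 and -0.17. Of 4 alpha-cell genes, 2 were measured, and MF(ALPHA)1 and STE3 had no value. SAG1 was at least 2-fold higher in the deletion (1.17) and stood at 0.34 with alpha factor. MF(ALPHA)2 stood at 0.42 and 0.37.

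In a cells, alpha factor binds the receptor Ste2, a G protein passes the signal to a MAPK cascade that ends in Fus3 and Kss1, and the transcription factor Ste12 then switches on genes for arrest, cell fusion and nuclear fusion. Msg5 removes phosphate from Fus3 and from Slt2, the kinase at the end of the cell wall integrity cascade, whose transcription factor is Rlm1. PRM genes are known as Ste12 targets that code for proteins with membrane-spanning segments, and PRM5 is also a known target of Rlm1.

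Without pheromone, PRM6 and PRM5 were at least 2-fold higher in the deletion than in wild type and PRM10 was at least 2-fold lower. PRM4, PRM8 and PRM9 lay between 0.43 and 0.56 in log2, above 0 but short of 1.5-fold as deposited. The 2 higher genes make up 33.3% of the 6 measured members, where 0.785% of 4969 genes were at least 2-fold higher. The lower gene makes up 16.7%, where 0.262% of all genes were at least 2-fold lower. The median of the 6 was 0.55, and that of all genes was -0.07.

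With alpha factor, 7 of the 8 PRM genes lay above 0 and PRM2 lay below it. PRM6 and PRM5 were again at least 2-fold higher, which is 25% of the 8 members against 0.37% of 4597 genes. No member was 2-fold lower, against 0.261% of all genes. At 1.5-fold every member was past the threshold: 7 were higher, against 1.46% of genes, and PRM2 was lower, against 3.15%. In the deletion comparison as deposited, the lower threshold added no member to the 2 higher and 1 lower (2.84% and 3.08% of genes). After centring on the median of all genes, PRM8 (0.63) and PRM9 (0.61) also passed 1.5-fold, which made 4 higher members against 3.66% of genes. The median of the 8 was 0.84, against -0.05 for all genes, and 40.6% of all genes lay above 0.

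**Figure D1:**
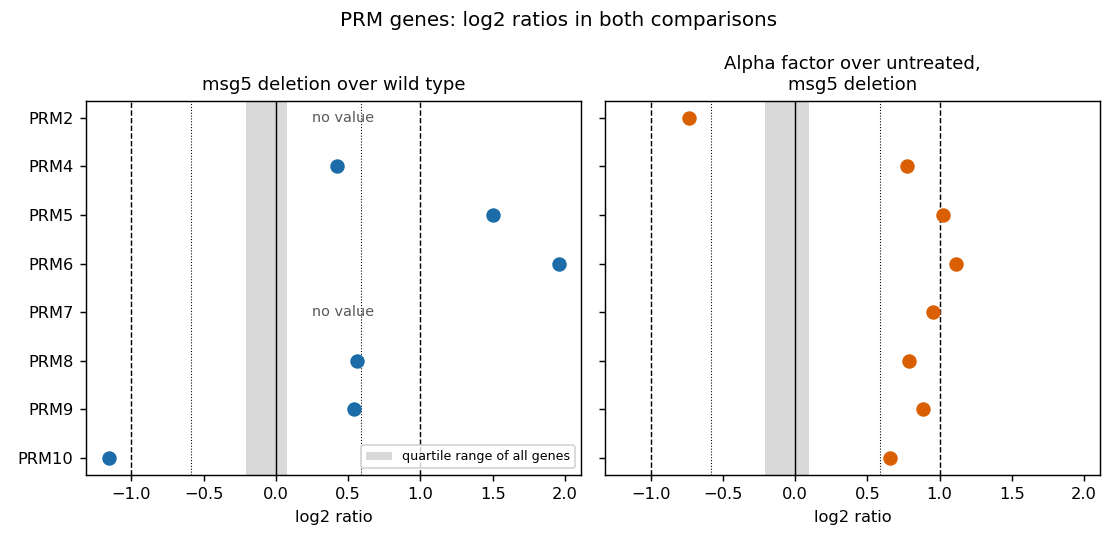
Log2 ratio of each of the 8 PRM genes in the deletion comparison (left) and with alpha factor (right), as deposited, 1 point per gene and no error bar because there is 1 value per gene. The grey band runs from the lower to the upper quartile of all genes, dashed lines mark 2-fold and dotted lines 1.5-fold; 5 of 6 points on the left and 7 of 8 on the right lie above the band, PRM10 lies below it on the left (-1.16) and PRM2 on the right (-0.73).

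PRM6, also named KCH2, codes for a potassium transporter that acts in calcium uptake during mating and lies on the left arm of chromosome XIII. It had the highest value of the members in both comparisons. Its log2 ratio was 1.96 in the deletion, which is 3.88-fold higher and rank 4 from the top of all genes. With alpha factor it was 1.11, or 2.16-fold, at rank 10. The paralogue KCH1 did not show such values, standing at 0.20 in the deletion and -0.42 with alpha factor. In a list of 7 potassium and calcium channel genes outside the members, of which 5 were measured in each comparison, none reached 1.5-fold in either direction. The shares of all genes at least 1.5-fold higher and lower were 2.84% and 3.08% in the deletion, and 1.46% and 3.15% with alpha factor. In the deletion the genes of this list farthest from 0 were MID1 (-0.40), KCH1 and the potassium transporter TRK1 (-0.16). With alpha factor they were KCH1, the potassium channel TOK1 (-0.35) and MID1 (-0.25). MID1 codes for a part of the high-affinity calcium channel.

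PRM5, on the left arm of chromosome IX, codes for a membrane protein that is induced through the cell wall integrity pathway as well as in mating. Its log2 ratio was 1.501 in the deletion, 2.83-fold higher and rank 10 of all genes. With alpha factor it was 1.02, or 2.03-fold, at rank 15 and just past the 2-fold line. Its paralogue YNL058C stood at 0.38 and -0.20. PRM5 thus was at least 2-fold higher in both comparisons while its paralogue was below 1.5-fold in both.

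The other genes of both pathways that PRM5 is known to answer to were counted beside it. Of 22 measured cell wall integrity output genes without PRM5, 5 were at least 2-fold higher in the deletion, 0 were lower and the median was 0.61. Among all genes, 0.785% were at least 2-fold higher and 0.262% lower in the deletion, and 0.37% and 0.261% with alpha factor. The medians of all genes were -0.07 and -0.05. With alpha factor 0 of the same 22 cell wall integrity genes were past 2-fold in either direction and their median was 0.11. The members farthest from 0 in the deletion were SLT2 itself (1.42), the cell wall protein gene NCW2 (1.19) and SPI1 (1.16), a cell wall protein gene induced by weak acids. With alpha factor they were the yapsin protease gene YPS1 (-0.95), the cell wall protein gene PST1 (-0.58) and the transglycosylase gene CRH1 (0.55). Of the pheromone response genes other than PRM genes, 7 of 28 measured were at least 2-fold higher in the deletion and 1 was lower, and 6 of 25 were higher with alpha factor and 0 lower. Their medians were 0.27 and 0.42. FIG1, which acts in calcium uptake during mating, and the mating adhesin gene FIG2 were among the genes farthest from 0 in both comparisons (3.33 and 2.82, then 2.38 and 1.52). The others were AGA1 (2.02), for the anchor of a-agglutinin, in the deletion and ASG7 (1.80), an a-specific gene, with alpha factor. These lists were chosen with earlier results of these data known, and their counts describe these arrays only.

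**Figure D2:**
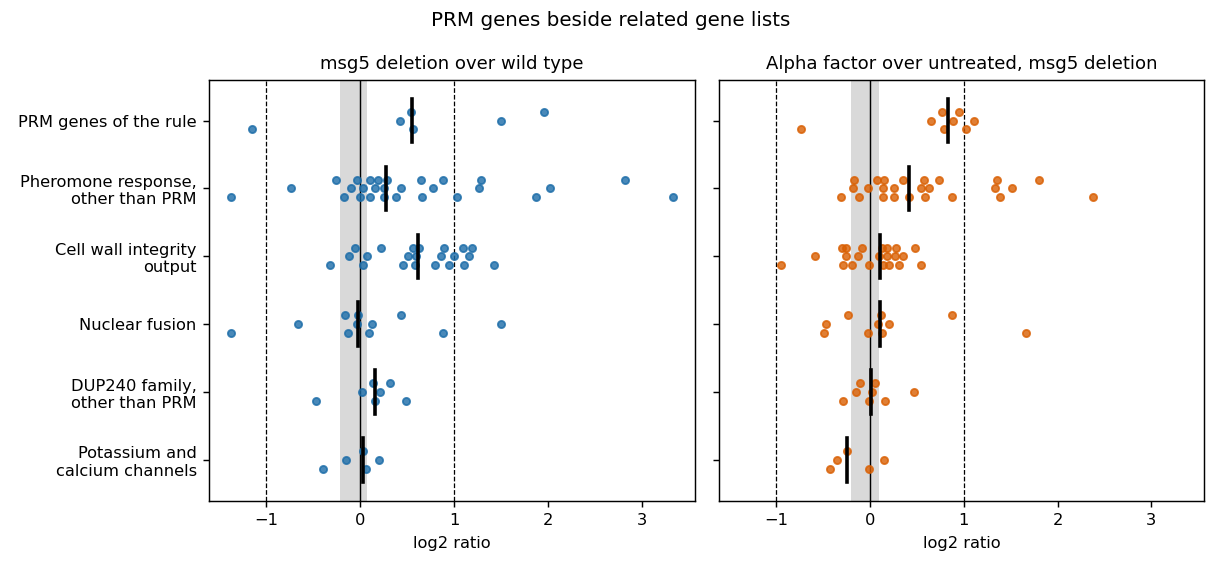
Log2 ratios of the PRM genes and of 5 related gene lists without those members, in the deletion comparison (left) and with alpha factor (right); each point is 1 gene, black bars are medians, the grey band runs from the lower to the upper quartile of all genes and dashed lines mark 2-fold. The bar of the cell wall integrity list sits at 0.61 on the left and 0.11 on the right, and that of the PRM genes at 0.55 and 0.84.

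PRM8 and PRM9 code for membrane proteins of the DUP240 family, a set of related proteins of the secretory pathway found in clusters in the genome. PRM8 lies on the left arm of chromosome VII beside its relative MST27, and PRM9 on the right arm of chromosome I beside MST28. Their values lay close together. In the deletion PRM8 had a log2 ratio of 0.56 (1.48-fold) and PRM9 of 0.54 (1.45-fold), at ranks 152 and 164. With alpha factor PRM8 was at 0.79 (1.73-fold) and PRM9 at 0.89 (1.85-fold), at ranks 29 and 22. Both gaps are smaller than the median gap between rows of the same gene. The genes are similar in sequence, and whether the spots tell PRM8 and PRM9 apart was not tested.

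The neighbours from the same family stood nearer to 0. MST27 had values of 0.02 and -0.15, and MST28 of 0.15 and 0.16. DFP2, the family member on the other side of PRM9, stood at -0.47 and 0.47. Of 8 other DUP240 genes, 7 were measured in the deletion with a median of 0.15 and all 8 with alpha factor with a median of 0.01. None reached 1.5-fold in either comparison. Few genes of any kind did: 2.84% were higher and 3.08% lower in the deletion, and 1.46% and 3.15% with alpha factor. The DUP240 genes farthest from 0 in the deletion were KTD1 (0.49), a defence gene against a killer toxin, DFP2 (-0.47) and UIP3 (0.32). With alpha factor they were DFP2 (0.47), DFP4 (-0.28) and MST28.

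PRM4, on the left arm of chromosome XVI, is a Ste12 target proposed to act in mating and is also under Cat8, an activator of genes used when glucose runs out. Its log2 ratio was 0.43 in the deletion (1.34-fold, rank 233) and 0.77 with alpha factor (1.71-fold, rank 30). Of the 6 named rows with a value in the deletion comparison, it was nearest to 0. Like PRM8 and PRM9, it lay farther from 0 with alpha factor than in the deletion, by 0.35 in log2 against 0.23 for PRM8 and 0.34 for PRM9. PRM5 and PRM6 lay the other way, with alpha factor values 0.48 and 0.85 below those of the deletion. These gaps were not tested, and they set together cultures with other growth times. They also rest on base 2 for the alpha factor values, which is less certain. Read as natural logarithms, PRM5 and PRM6 would stand at 1.47 and 1.60 in log2 with alpha factor. Read as base 10 they would stand at 3.39 and 3.69, above their deletion values.

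PRM7 lies on the left arm of chromosome IV, and its named row YDL039C had no value in the deletion comparison. With alpha factor that row had a log2 ratio of 0.95, or 1.93-fold, at rank 21 and just inside the 2-fold line. It reached 2-fold once the values were centred on the median of all genes (1.00). A second row, YDL038C, is part of PRM7 in the R64 names. That row stood at -0.18 in the deletion and 0.27 with alpha factor, so the rows of PRM7 differed by 0.68, the largest gap between rows of any gene in the alpha factor comparison. Their mean was 0.61, still past 1.5-fold. The next gene along the chromosome is BSC1 (YDL037C), and in some other yeast strains the stretch from YDL039C to YDL037C is a single reading frame. BSC1 was at least 2-fold higher in the deletion, at 1.05, and had no value with alpha factor. In neither comparison did YDL039C, YDL038C and YDL037C all have a value.

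PRM10, on the left arm of chromosome X, is proposed to act in mating, and its product is predicted to span the membrane. Of the 6 named rows with a value, it was the only one below 0 in the deletion. Its log2 ratio was -1.16 there, which is 2.23-fold lower and rank 7 from the bottom of all genes. With alpha factor it was 0.65, or 1.57-fold higher, at rank 56 from the top. The 2 values lie 1.81 apart. The call in the deletion is near its threshold: after subtraction of a running median over 11 neighbouring rows of the table, an alternative chosen after seeing the data, it was -0.93.

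PRM10 lies beside YJL107C, a gene of unknown function that is merged with it in related fungi. YJL107C stood at -0.07 in the deletion and 0.85 with alpha factor. Both genes thus lay past 1.5-fold with alpha factor, whereas in the deletion only PRM10 of the pair did.

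PRM2, on the left arm of chromosome IX, codes for a membrane protein that is required for efficient nuclear fusion. It had no value in the deletion comparison. With alpha factor its log2 ratio was -0.73, 1.66-fold lower and rank 58 from the bottom, the only member below 0. Nuclear fusion genes outside the members were spread to both sides. In the deletion, 1 of 11 measured was at least 2-fold higher and 1 lower, with PRM3 at 1.504, the kinesin gene KAR3 at -1.37 and the transcription factor gene KAR4 at 0.88, and a median of -0.02. With alpha factor 1 of 10 was at least 2-fold higher, with PRM3 at 1.66, KAR4 at 0.88 and the chaperone gene KAR2 at -0.48, and the median was 0.11. Among all genes, 0.785% were at least 2-fold higher and 0.262% lower in the deletion, and 0.37% were higher with alpha factor. The medians of all genes were -0.07 and -0.05.

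The genes that complete the PRM series are PRM1, of plasma membrane fusion, and PRM3, of nuclear envelope fusion. PRM1 stood at 1.82 in the deletion and 0.17 with alpha factor, and PRM3 at 1.504 and 1.66.

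The genes directly beside the PRM genes on the chromosome mostly stood near 0. Of the 16 neighbours, 1 was at least 2-fold higher in the deletion (BSC1), against 0.785% of all genes. In that comparison 0 neighbours were 2-fold lower, against 0.262% of all genes, and the median of the neighbours was -0.03. With alpha factor 14 were measured and 0 were past 2-fold, against 0.37% of all genes higher and 0.261% lower. The median of these 14 was -0.0029 and the range ran from -0.25 to 0.85, the highest being YJL107C. Beside PRM5 stood RHO3 (0.04 and -0.18), for a small GTPase, and HIS5 (0.19 and 0.02), of histidine synthesis. Beside PRM6 stood GSF2 (-0.02 and -0.25) and PRP39 (0.04 and 0.05), of RNA splicing. Among the 4 rows on each side of PRM6 in the table, YML048W-A had values of 1.23 and 0.73, high in both comparisons as PRM6 was. That feature was picked out after its values were seen, it has no entry in the R64 table, and whether its spot shares sequence or transcript with PRM6 was not tested.

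**Figure D3:**
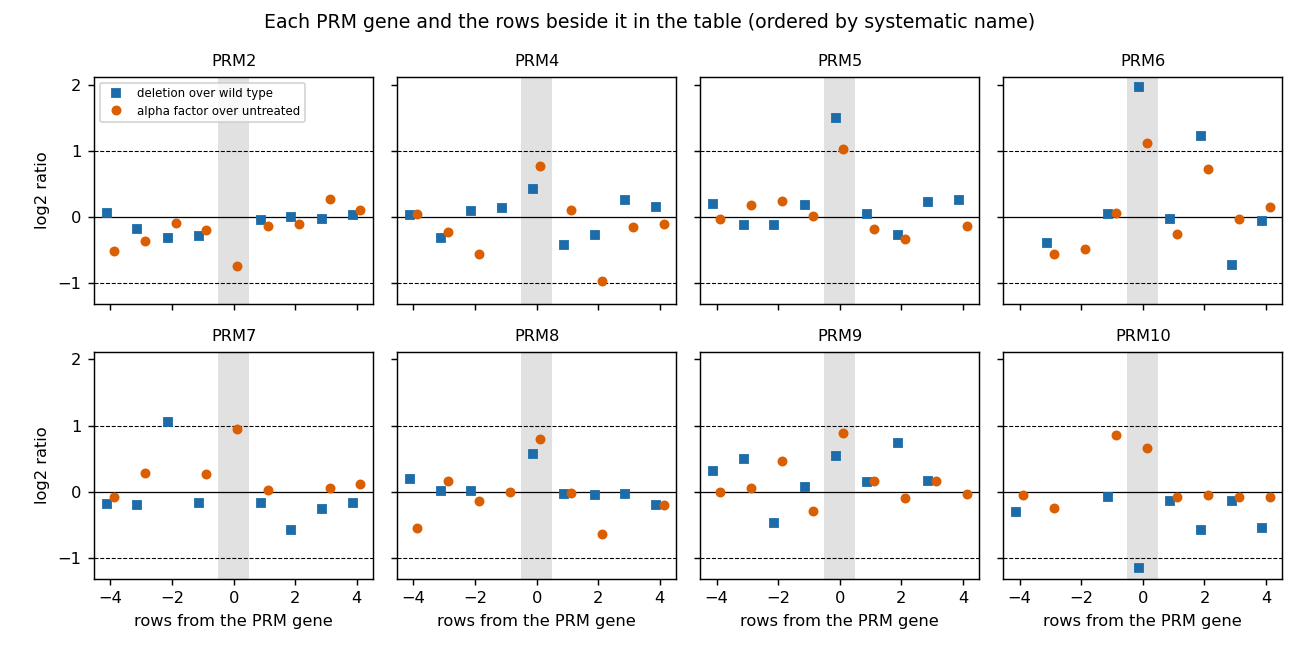
Log2 ratio of each PRM gene (grey strip, at 0 on the x axis) and of the 4 rows on each side of it in the table, which is ordered by systematic name, for the deletion (blue squares) and alpha factor (orange circles); dashed lines mark 2-fold and rows with no value are empty. Of the neighbouring rows, 2 of 58 with a value lie past 2-fold in the deletion, BSC1 near PRM7 (1.05) and YML048W-A near PRM6 (1.23). With alpha factor 0 of 57 do. Among all genes, 0.785% were at least 2-fold higher and 0.262% lower in the deletion, and 0.37% and 0.261% with alpha factor. The rows beside PRM7 include YDL038C, which is part of PRM7 in the R64 names.

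The genes with the most similar pair of values were found by their distance over both log ratios, which is a likeness over 2 comparisons only. For PRM6 the nearest were AGA1 (2.02 and 1.39, distance 0.28), PRM5 (distance 0.46) and ASG7 (1.87 and 1.80, distance 0.69). For PRM5 they were CRG1 (1.35 and 0.65, distance 0.41), a methyltransferase gene, AGA2 (1.26 and 1.35, distance 0.41), for the binding subunit of a-agglutinin, and PRM6. For PRM10 they were CIS1 (-0.82 and 0.55, distance 0.35), IRC10 (-0.69 and 0.41, distance 0.53) and SIS2 (-0.76 and 0.27, distance 0.55).

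**Figure D4:**
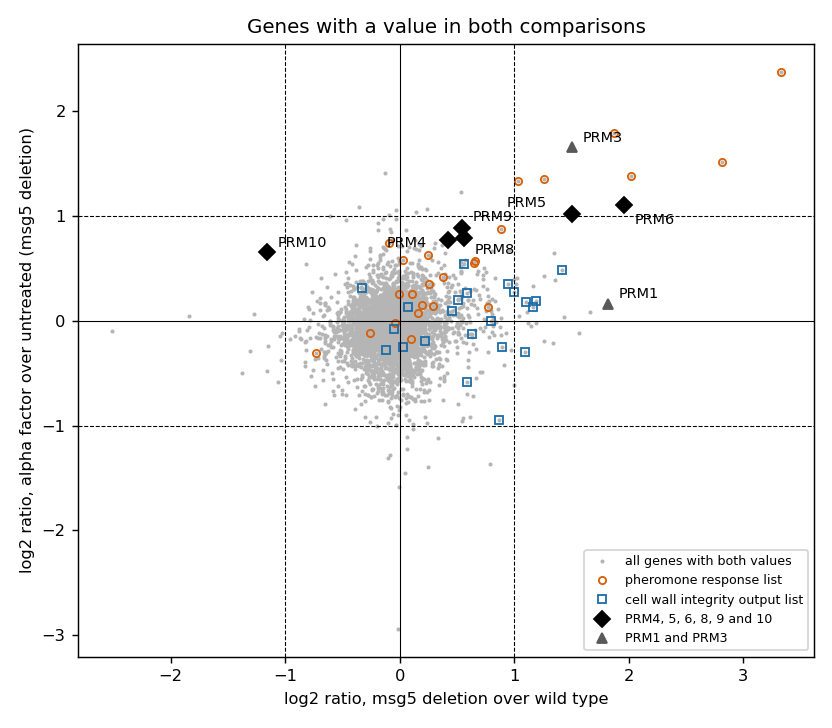
Log2 ratio with alpha factor (vertical) against log2 ratio in the deletion (horizontal) for the 4378 genes with both values. Black diamonds are PRM4, PRM5, PRM6, PRM8, PRM9 and PRM10, grey triangles are PRM1 and PRM3, and dashed lines mark 2-fold. PRM7 is a grey point at -0.18 (from the row YDL038C) and 0.61 (the mean of its rows). PRM5 and PRM6 lie past 2-fold on both axes. PRM4, PRM8 and PRM9 lie close together at 0.43 to 0.56 and 0.77 to 0.89. PRM10 is the only diamond at the upper left.

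As a kind of culture, untreated deletion cells are the upper term of the first ratio and the lower term of the second. The comparisons may therefore not be independent of each other. Whether the same RNA served in both is not given in the sources used here, and the growth times differ. No relation between the columns was therefore computed over the PRM genes.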

How the data were processed

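The authors hybridised Cy3- and Cy5-labelled cDNA on 4 arrays per comparison and read the images with GenePix Pro 5.0, per the labels. The deposited values are log ratios, 1 per feature, of base log2 in the deletion comparison and taken as log2 with alpha factor, where the base is not stated. How spots were background-corrected, normalized and filtered, and on which genome build, is not given in the sources used here. For alpha factor, only 7.97% of 4879 values fitted ratios rounded to 0.001 in base 2, near the 7.52% of random placement, so that step, which fitted all deletion values, gave no base. At a finer step, 79.1% of 705 values below -0.3 lay within 5.5e-05 of the base 2 logarithm of a 0.0001-step ratio, and random placement would give 54.3%; natural logarithms gave 70.6% (chance 67.7%) and base 10 gave 81.8% (chance 81.0%).

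Of 6207 gene features, 5654 matched the R64 table by locus tag, 57 by an older name and 496 not at all. Rows of a gene were averaged for all genes; PRM7 is given by the row YDL039C, with the mean beside it. Lists were described by counts past 2-fold and medians. Named genes were all members, their relatives and neighbours, the 3 genes of each list farthest from 0 and the 3 genes nearest to each member past 2-fold. The members and lists were chosen with earlier results of these data known. The counting and the smoothing were tested on simulated data. There the planted values lay well past 2-fold and all others well inside it, so calls near the threshold were not tested. Python 3.11.15, pandas 2.3.3 and numpy 2.4.6 were used. Signal over background, array values and sequences were not used here.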

Additional observations from a re-analysis of the deposited data

How the results depend on the processing

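Besides another base and a turned sign, 7 alternatives were run per comparison: centring on the median of all genes, running medians over 51 or 11 rows of the table, a running median over gene span, the row farthest from 0 for genes with several, a 1.5-fold threshold, and PRM7 as the mean of its rows. The 11-row median and the PRM7 mean were chosen after seeing the data. All 98 single PRM values kept their sign under these, and 3 moved by more than the median gap between rows of a gene. Many of the 98 are no check, however. The 1.5-fold threshold and the farthest row left every single value as it was, and the PRM7 mean changed only PRM7. With the 11-row median, 0 PRM genes instead of 1 were at least 2-fold lower in the deletion, as were 5 genes of all instead of 13. PRM7 passed 2-fold with alpha factor under centring, the 51-row median (1.04) and the span median (1.05), giving 3 higher genes instead of 2. The shares of all genes at least 2-fold higher were then 0.435%, 0.457% and 0.305%. At 1.5-fold, 7 PRM genes were higher and 1 lower with alpha factor, also when combined with centring, the 51-row median or the span median. These combinations, added after seeing the data, gave 4, 3 and 4 higher PRM genes in the deletion instead of 2. The matching shares of all genes were 3.66%, 3.66% and 3.44%. With the 1.5-fold threshold alone, 11 pheromone response genes were higher and 2 lower in the deletion, and 13 cell wall integrity genes were higher. The shares of all genes were 2.84% higher and 3.08% lower. At that threshold 1 cell wall integrity gene was lower with alpha factor, against 3.15% of all genes. Read as natural logarithms, the median of the PRM genes would be 0.80 in the deletion and 1.21 with alpha factor, where 6 would be at least 2-fold higher (1.02% of all genes) and 1 lower (1.83%); read as base 10 the alpha factor median would be 2.78, with 7 higher (6.94% of all genes) and 1 lower (14.6%). If alpha factor ratios were untreated over treated, the median would be -0.84, with 0 higher (0.261% of all genes) and 2 lower (0.37%). The PRM genes would then stand at 0.73 (PRM2), -0.77 (PRM4), -1.02 (PRM5), -1.11 (PRM6), -0.95 (PRM7), -0.79 (PRM8), -0.89 (PRM9) and -0.65 (PRM10). The promoter motif comparison was not run, because no promoter sequences were used here. No paired analysis was possible because each comparison has 1 condensed value per gene. Spot signal over background was not used, so how far it limits each value is unknown.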
